A study of Caenorhabditis elegans with 2 samples.

Results

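Cuticle collagens are the structural proteins of the worm exoskeleton. In Caenorhabditis elegans most are short genes, transcribed mainly in the epidermis (hypodermis), many of them in pulses within the moulting cycle. Their products are hydroxylated and folded in the endoplasmic reticulum, secreted, trimmed and crosslinked. NFYA-1 is an A subunit of NF-Y, a trimeric factor known for binding the CCAAT box in promoters. Here 172 nuclear protein-coding genes, of 19973 in all, were taken by name: 156 col genes and 16 genes of the bli, dpy, rol and sqt classes, which are named for blistered, dumpy, roller and squat mutants. Each was scored by the strongest NFYA-1 summit from 500 bp upstream to 200 bp downstream of its annotated start, called its promoter window below.

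The series holds chromatin immunoprecipitation sequencing of whole hermaphrodites at the L3 larval stage, from strain OP404 (unc-119(tm4063) III; wgIs404), whose transgene makes NFYA-1 fused to GFP and FLAG at its C-terminus. Chromatin was sonicated and precipitated with an antibody against GFP. There was 1 group of 2 biological replicates, and an untagged strain was not analysed here, so the values are descriptions of 1 condition and carry no p-value. The authors deposited 30000 relaxed regions (peaks with background) for each replicate and for both together, and 6932 peaks that passed their irreproducible discovery rate (IDR) step, all on ce11. All 6932 IDR summits were among the first 6932 regions of the pooled relaxed list by signal. A gene is called bound when an IDR summit lies in its promoter window, and need not have a region there in each replicate. Signal is the authors' own value, whose scale the labels do not define, and is compared only within a list. The lowest IDR signal was 53.5, the median 121 and the highest 12401. Read depth is unknown from peak lists. In whole animals, binding in few cells cannot be told apart from weak binding in many, and no label gives the point of the moulting cycle at harvest.

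The names were checked against the gene models. RefSeq product names called 164 of the 172 a cuticle collagen or a cuticle collagen domain protein, and the other 8 a collagen. A run of at least 10 in-frame glycine codons spaced as in Gly-X-Y repeats was found in 171, with a median of 21 repeats, and was not found in the annotated frame of col-17. The gene col-99 encodes a transmembrane collagen, so the name rule takes in at least 1 member outside the cuticle. Collagen genes were short, with a median length of 1220 bp against 2027 bp for all protein-coding genes.

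Of the 172 collagen genes, 9 were bound (5.23%, 95% Wilson interval 2.78 to 9.64), against 15.6% of all nuclear protein-coding genes. In order of signal these were col-38, col-2, col-71, col-107, dpy-13, col-125, col-144, col-167 and dpy-5. Weak enrichment was more common: 45 collagen genes (26.2%, interval 20.2 to 33.2) had at least a pooled relaxed summit in the window, against 30.1% of all protein-coding genes. The remaining 127 had none, and 112 had none in the relaxed list of either replicate either. The share of collagens was thus below that of all genes for IDR peaks, and its interval included that of all genes for relaxed regions, which include background. Genes sharing a promoter are not independent, and the intervals cover counting error only.

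The bound collagens also ranked low. Among all 6932 IDR peaks, where rank 1 is the strongest, the summits of the 9 bound collagens had a median rank of 4865, against 2607 for all 3122 bound genes. Only col-38, col-2 and col-71 lay in the stronger part of the list, and with the IDR peaks above the median signal alone they were the 3 bound collagens (9.77% of all genes were bound under that setting). The other 6 had ranks from 4535 to 6575.

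**Figure D1:**
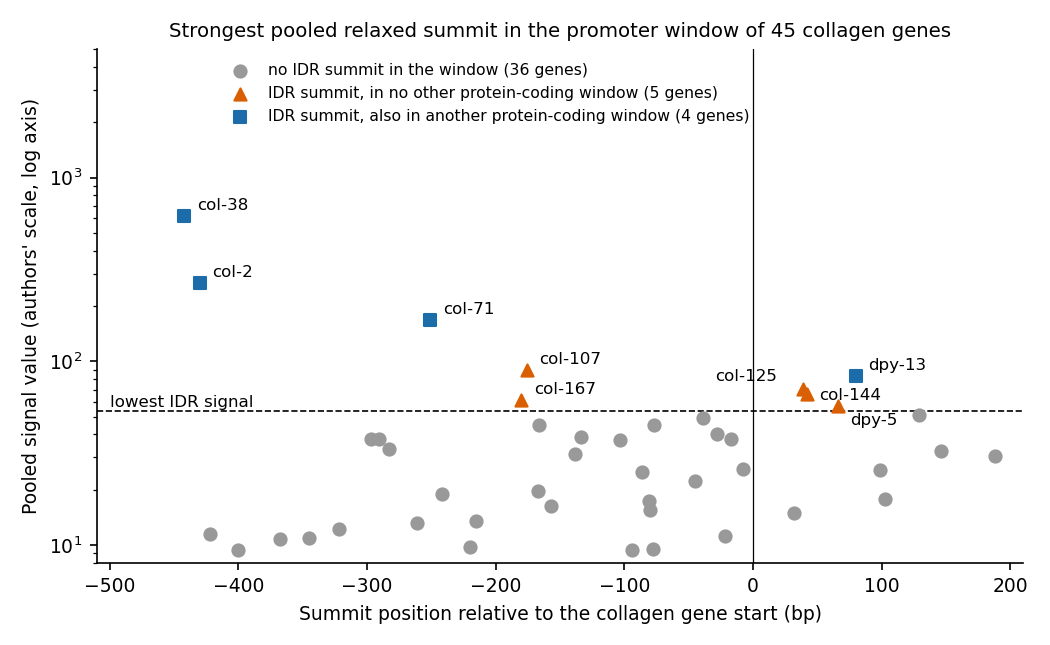
Position of the strongest pooled relaxed summit relative to the collagen gene start (x axis, bp) and its signal (y axis, log scale) for the 45 collagen genes that have one; each point is 1 gene, and the dashed line is the lowest IDR signal, 53.5. The 3 highest points, col-38, col-2 and col-71, lie 251 to 442 bp upstream, and 4 of the other 6 bound genes have their summit within 80 bp downstream of the start.

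The sequences around 8 of the 9 summits are shown next, since they separate the summits by kind: upstream of a collagen and a divergent neighbour, upstream of a collagen alone, and inside a collagen coding exon. Each is WBcel235 (ce11) sequence within 50 bp of the summit, read 5′ to 3′ on the strand of the collagen gene, without annotated untranslated bases. Capitals in col-2 and col-107 mark CCAAT or its reverse complement ATTGG, and GAGAGA. Capitals in dpy-13 and col-125 mark a 26-base stretch that both share.

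The 3 summits nearer to a divergent neighbour were those of col-38 (chrII:8569480-8569580, minus strand), col-2 (chrIV:10085831-10085931, minus strand) and col-71 (chrII:3502771-3502871, minus strand).
col-38: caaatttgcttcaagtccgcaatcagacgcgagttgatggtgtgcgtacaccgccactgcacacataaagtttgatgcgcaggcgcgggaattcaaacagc
col-2: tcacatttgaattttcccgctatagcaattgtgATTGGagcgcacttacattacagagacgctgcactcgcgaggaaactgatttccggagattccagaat
col-71: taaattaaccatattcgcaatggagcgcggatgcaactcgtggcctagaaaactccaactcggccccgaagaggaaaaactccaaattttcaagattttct

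The summits upstream of a collagen alone were those of col-107 (chrIV:1548495-1548595, plus strand) and col-167 (chrX:6323258-6323358, plus strand).
col-107: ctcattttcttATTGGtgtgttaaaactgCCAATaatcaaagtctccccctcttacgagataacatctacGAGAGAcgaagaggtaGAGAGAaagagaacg
col-167: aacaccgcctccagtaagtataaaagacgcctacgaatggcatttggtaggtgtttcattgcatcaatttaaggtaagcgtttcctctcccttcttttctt

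The summits in coding exons were those of dpy-13 (chrIV:4235644-4235744, plus strand), col-125 (chrIV:11225516-11225595, plus strand) and col-144 (chrV:9160550-9160627, minus strand).
dpy-13: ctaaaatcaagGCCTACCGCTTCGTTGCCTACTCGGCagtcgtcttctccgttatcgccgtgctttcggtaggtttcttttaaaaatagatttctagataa
col-125: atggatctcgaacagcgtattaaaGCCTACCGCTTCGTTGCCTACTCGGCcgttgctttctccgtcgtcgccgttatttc
col-144: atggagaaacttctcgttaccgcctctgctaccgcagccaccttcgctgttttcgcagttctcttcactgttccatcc

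The 3 strongest collagen peaks each lay in a divergent promoter, nearer to the other gene. The summit of col-38 (WBGene00000615) had rank 221 and a pooled signal of 617, with rank 207 in replicate 1 (signal 372) and rank 304 in replicate 2 (signal 240). It lay 442 bp upstream of col-38 and 397 bp upstream of rpl-5 (WBGene00004416, a large-subunit ribosomal protein gene), inside the annotated noncoding genes F54C9.16 and F54C9.17, with the start of F54C9.17 only 32 bp away. Both replicates placed a summit within 4 bp of it, among their strongest regions.

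The summit of col-2 (WBGene00000593) had rank 1169 and a pooled signal of 266, with rank 928 in replicate 1 (signal 175) and rank 1783 in replicate 2 (signal 89.7). It was intergenic, 430 bp upstream of col-2 and 256 bp upstream of ndc-80 (WBGene00003576), which codes for a kinetochore protein that holds spindle microtubules. The summit of col-71 (WBGene00000647) had rank 2386 and a pooled signal of 167, with rank 2410 in replicate 1 (signal 96.8) and rank 2375 in replicate 2 (signal 73.3). It was intergenic, 251 bp upstream of col-71 and 147 bp upstream of the protein-coding gene Y49F6B.2 (WBGene00021715). At each of these the replicates lay on the same side of the IDR list's length of 6932, and each IDR region was narrow, at 295, 185 and 164 bp.

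**Figure D2:**
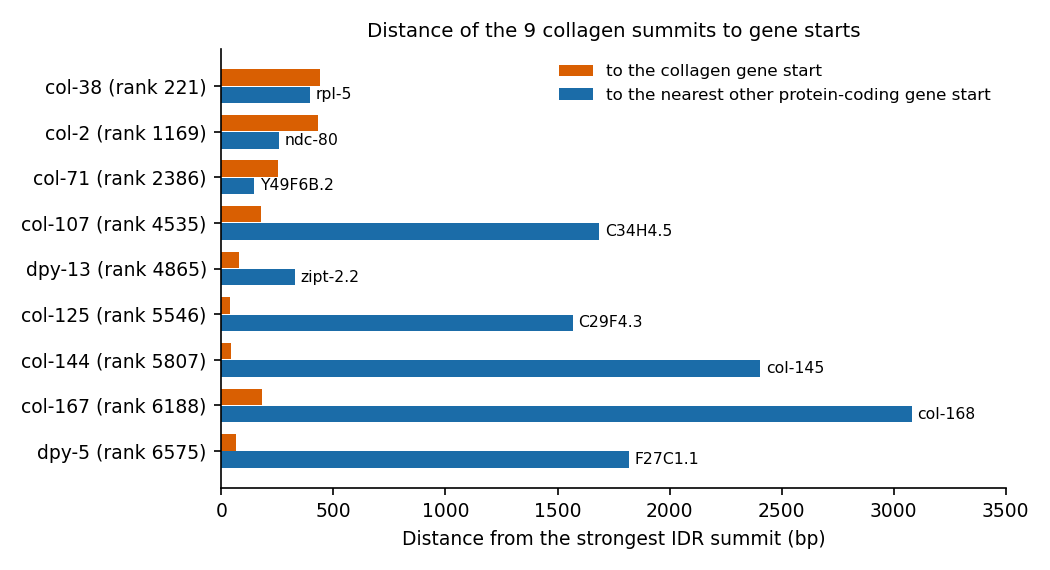
Distance in bp from the strongest IDR summit of each of the 9 bound collagen genes to that gene's start and to the start of the nearest other protein-coding gene, which is named at its bar; genes are in order of rank. The neighbour is nearer for col-38, col-2 and col-71 (397, 256 and 147 bp), and the collagen is nearer for the other 6.

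The strongest summit also lay in the promoter window of another protein-coding gene for col-38, col-2, col-71 and dpy-13 (4 of 9), where 37.8% of all bound genes share their summit in this way. For the other 5 no such neighbour was found. No other gene start of any biotype was nearer to the summit than the collagen's own for 6 of 9, against 72.3% of all bound genes. Both counts are near the genome's. A protein-coding gene starting within 1000 bp on the divergent side was present at 20 collagens (11.6%) and at 17.7% of all protein-coding genes. Of these 20 collagens 4 were bound (20.0%), and of the other 152, 5 (3.29%), against 36.3% and 11.2% for all protein-coding genes with and without such a neighbour. The interval for collagens with such a neighbour, 8.07 to 41.6, included the share of all genes, and that for collagens without one, 1.41 to 7.47, lay below it.

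Of these 20 collagens, col-3 and col-117 are each other's neighbour and face each other across 588 bp, so that 1 summit serves both windows. It was not an IDR peak: its pooled signal was 37.7 (rank 9165), with rank 21721 in replicate 1 and rank 5111 in replicate 2. In each of these windows 33.1% of 31-base words occur elsewhere in the genome as well, so signal there may be shared with other sequence. The median over the 172 collagen windows was 0%.

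The remaining bound collagens with an upstream summit had no protein-coding neighbour close by. The summit of col-107 (WBGene00000681) had rank 4535 and a pooled signal of 90.0, with rank 5468 in replicate 1 (signal 43.6) and rank 3394 in replicate 2 (signal 54.1). It lay 176 bp upstream of the start, in an intron of C34H4.5, a gene on the other strand whose start was 1686 bp from the summit. Of the 9 bound collagens it alone had a summit whose 101 bp held both CCAAT (2 sites) and GAGAGA (2 sites). The summit of col-167 (WBGene00000740) had rank 6188 and a pooled signal of 61.5, 180 bp upstream of the start, with rank 11232 in replicate 1 (signal 19.3) and rank 4820 in replicate 2 (signal 37.6). Replicate 1 therefore did not place col-167 among its first 6932 regions.

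At the other 4 bound collagens the summit was inside a coding exon of the collagen itself. The gene dpy-13 (WBGene00001074, a collagen that sets body length) had its summit 80 bp downstream of the start, at rank 4865 and a pooled signal of 83.0, with rank 5691 in replicate 1 (signal 41.6) and rank 4281 in replicate 2 (signal 42.8). The start of zipt-2.2, a ZIP family zinc transporter gene on the divergent side, was 329 bp from it. The summit of col-125 (WBGene00000699) was 39 bp downstream at rank 5546 (signal 70.5; ranks 6439 and 5598 in replicates 1 and 2). That of col-144 (WBGene00000717) was 42 bp downstream at rank 5807 (signal 66.8; ranks 5345 and 5844). The last was dpy-5 (WBGene00001067, a further body length collagen), with its summit 66 bp downstream at rank 6575 and a signal of 57.3. Replicate 2 ranked it 4177 (signal 44.0), and replicate 1 had no relaxed region overlapping that peak at all.

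This position was picked out after its values were seen. The strongest summit was downstream of the start in 4 of 9 bound collagens (44.4%, interval 18.9 to 73.3) and in 7.27% of all bound genes. Over all 45 collagens with a relaxed summit the contrast was smaller: 10 had it downstream (22.2%, interval 12.5 to 36.3), against 14.2% of all protein-coding genes with one, which the interval includes. Coding exons held 120 of all IDR summits (1.73%), and 4 of these 120 were in collagens, whose coding sequence makes up 0.685% of all coding bases. Both labels depend on annotated starts that lie close to the coding sequence. Only 10 and 15 untranslated bases were left out at col-125 and col-144, and dpy-5 has 852 coding bases in a gene of 855 bp. Whether transcripts begin at these annotated starts was not tested. Without summits in coding exons 5 collagens were bound, against 15.4% of all genes. The 26-base stretch shared by dpy-13 and col-125 occurred at no other place in the genome, and no other pair of the 4 coding-exon windows shared more than 8 bases. Within 100 bp of the 9 summits, words of 31 bases found elsewhere in the genome made up 2.92% at col-144 and 0% at the other 8.

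All 6 bound collagens of lower rank had an IDR region of 356 bp, the most common width, which 60.5% of IDR peaks and 90.7% of pooled relaxed regions share. Leaving out regions of that width, a setting chosen after seeing the data, left col-38, col-2 and col-71, with 8.17% of all genes bound.

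**Figure D3:**
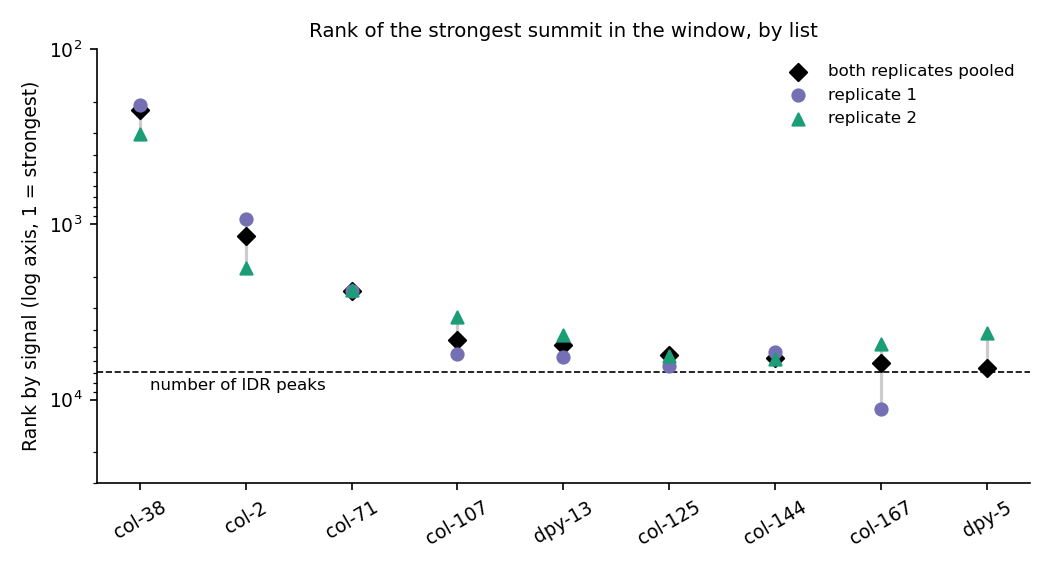
Rank by signal (y axis, log scale, strongest at the top) of the strongest summit in the promoter window of the 9 bound collagen genes, in the IDR list from both replicates and in each replicate's relaxed list; the dashed line marks rank 6932. The points of col-38, col-2 and col-71 lie at ranks 207 to 2410, and col-167 in replicate 1 lies at 11232; dpy-5 has no point for replicate 1.

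The replicates differed most over the weakest members. A region among the first 6932 of both replicates lay in the window of 7 of the 9 bound collagens, against 86.7% of all bound genes; col-167 and dpy-5 were the exceptions. With the first 6932 regions of replicate 1 in place of the IDR list, 9 collagens were bound, 7 of them those above together with col-93 and col-109. With those of replicate 2 the count was 14, all 9 above together with col-3, col-117, col-41, col-48 and col-90, so leaving out replicate 1 raised it by more than 1.5 times. Under these settings 15.5% and 15.9% of all protein-coding genes were bound.

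The share of bound collagen summits with CCAAT was near that of all bound genes. The pentamer lay within 50 bp of the summit, on either strand, in 2 of 9 (col-2 and col-107), against 18.6% of all bound genes, and in 3 and 1 of the same 9 in windows centred 300 bp to the lower- and higher-coordinate side. The longer form RRCCAATSR (R for either purine, S for C or G) was at none of the 9 summits and at 2.76% of all bound genes. GAGAGA was at 1 of 9 and at 23.4% of all bound genes. Over the whole promoter windows, bound or not, CCAAT was present in 144 of 172 collagens (83.7%, interval 77.5 to 88.5) and in 77.8% of all protein-coding genes. RRCCAATSR was present in 17 (9.88%, interval 6.26 to 15.3) and in 6.57%, and of these 17 collagens col-2 was the bound one. Both intervals include the share of all genes. GAGAGA was present in 76 collagen windows (44.2%, interval 36.97 to 51.65) and in 36.76% of all, just below that interval. A match in sequence is not a binding site.

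Just below the IDR threshold stood a group of collagens with weak regions. The 10 strongest without an IDR summit in the window had pooled signals from 51.2 down to 37.1. The first was col-90 (51.2, rank 7136, 129 bp downstream), with ranks of 7588 and 5868 in replicates 1 and 2. Next was col-166 (49.0, rank 7384, 39 bp upstream), with ranks of 9657 and 7588. At both the deposited −log10 q stood at its ceiling of 4.17, as it does for every IDR peak, and at the other 34 relaxed-only collagens it was lower.

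Among the others of these 10, the replicates lay closest in rank for rol-6 and col-109. The gene col-41 (pooled signal 45.0) had rank 19963 in replicate 1 and 6730 in replicate 2, and col-109 (44.8) had 6867 and 8901. For col-109 these ranks belong to summits at different positions, 9 bp in replicate 1 and −194 bp in replicate 2. The roller collagen gene rol-6 (40.1) had ranks of 9581 and 11960, with its summit 28 bp upstream. For col-93 (38.7) replicate 1 gave rank 6034 and replicate 2 had no region in the window. The squat and roller collagen gene sqt-1 (37.9) had 25302 and 7421, col-48 (37.1) had 15051 and 5689, and col-3 and col-117 share the summit given above.

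Collagens known from mutants fell into 3 lists, too short for their shares to be set apart from the 15.6% of all protein-coding genes. Of the 6 furrow collagens (dpy-2, dpy-3, dpy-7, dpy-8, dpy-9 and dpy-10), which build the annular furrows of the cuticle, none was bound. The strongest of them was dpy-10, with a pooled signal of 24.9 at rank 12988, and dpy-8 and dpy-9 had no pooled relaxed summit in the window. Of the 8 other body shape collagens, dpy-5 and dpy-13 were bound (interval of the share 7.15 to 59.1%), rol-6, rol-8, sqt-1 and sqt-2 had a relaxed summit only, and dpy-17 and sqt-3 had none in the pooled list. The strut collagens bli-1 and bli-2, which build columns in the adult cuticle, had no relaxed summit in any list.

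Some IDR peaks lay near or in collagen genes but outside their promoter windows. The summits 670 and 866 bp upstream of col-63 (rank 2224) and col-8 (rank 2311), and 968 bp upstream of col-185 (rank 5622), entered when the window began at 1000 bp. That of col-8 was 260 bp downstream of the start of the divergent gene rfl-1. In gene bodies, the strongest was at rank 150 in the 3′ UTR of col-87, 4703 bp from its start, and intron summits were found in col-72 (ranks 1797 and 3870), col-85 (rank 2396), col-99 (rank 2736) and col-52 (rank 4965). A summit at rank 6788 lay in annotated 3′ UTRs of both col-90 and let-754, 1209 bp from the col-90 start. In all, 10 collagens (5.81%) had an IDR summit in the gene body, against 8.31% of all protein-coding genes. These 10 include col-144, col-125, dpy-13 and dpy-5, whose summits also lie inside the promoter window. The median distance from a start to the nearest IDR summit was 6180.5 bp for collagens and 6279 bp for all protein-coding genes. The lower quartiles were 2772 and 1511 bp, and the upper quartiles 14405.5 and 16743 bp. Of collagens, 82.6% (interval 76.2 to 87.5) lay over 2 kb from the nearest IDR summit, against 71.5% of all protein-coding genes.

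Some bound collagens have other collagens nearby, and none of the 6 within 10 kb was bound, a count too small to compare with the 5.23% of all collagens. On chromosome V, col-145 and col-10 start 2363 and 4665 bp from col-144 and had only relaxed summits (signals 17.3 and 25.6). On chromosome X, col-168 and col-169 start 2900 and 5672 bp from col-167, with signals of 19.0 and 16.2, and col-170 at 8221 bp had none.

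The bound share differed among lists of genes linked to collagen, the cuticle, moulting or the epidermis, each too short for a close estimate. Of 54 genes in 8 such lists outside the 172 collagens, which include basement membrane collagens, 9 were bound (16.7%, interval 9.02 to 28.7), against the 15.6% above. For folding, 2 of 5 were bound. By far the strongest was pdi-2, which codes for the disulfide isomerase that is also the beta subunit of collagen prolyl 4-hydroxylase, at rank 8 (signal 5323), 29 bp upstream and with CCAAT at the summit. Its ranks were 9 and 7 in replicates 1 and 2. The lysyl hydroxylase gene let-268 was at rank 6776 (38 bp upstream), with ranks of 7049 and 7305 in replicates 1 and 2. Neither replicate placed let-268 among its first 6932 regions. The hydroxylase subunit gene phy-2 had a relaxed summit at rank 7031.

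For secretion, 3 of 6 were bound (interval of the share 18.8 to 81.2%): sec-24.1, a COPII coat gene, at rank 200 (position −162 bp), the COPII GTPase gene sar-1 at rank 2135, and tmem-131, which codes for a collagen-binding membrane protein of the secretory pathway, at rank 4504. At tmem-131 replicate 1 gave rank 4309 and replicate 2 had no region in the window. The listed names sec-13 and emo-1 (secretion) and nas-35 (processing) were not found in the annotation and are not counted under those names. Each of these genes may be annotated, or already listed, under another name. For processing and crosslinking 1 of 8 was bound, the thioredoxin-like gene dpy-11 at rank 5950. The collagen bli-6, outside the name rule, was at rank 2123 with its summit also in the window of hrpf-2, and was 1 of 5 such collagens bound. Of 10 other cuticle proteins the cuticlin gene cut-2 was bound (rank 3103, with CCAAT), and of 10 epidermal regulators the nuclear receptor gene nhr-25 was (rank 4946). At nhr-25 replicate 1 gave rank 8720, outside its first 6932 regions, and replicate 2 gave rank 3120. None of 7 moulting genes and none of 3 basement membrane collagens was bound.

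**Figure D4:**
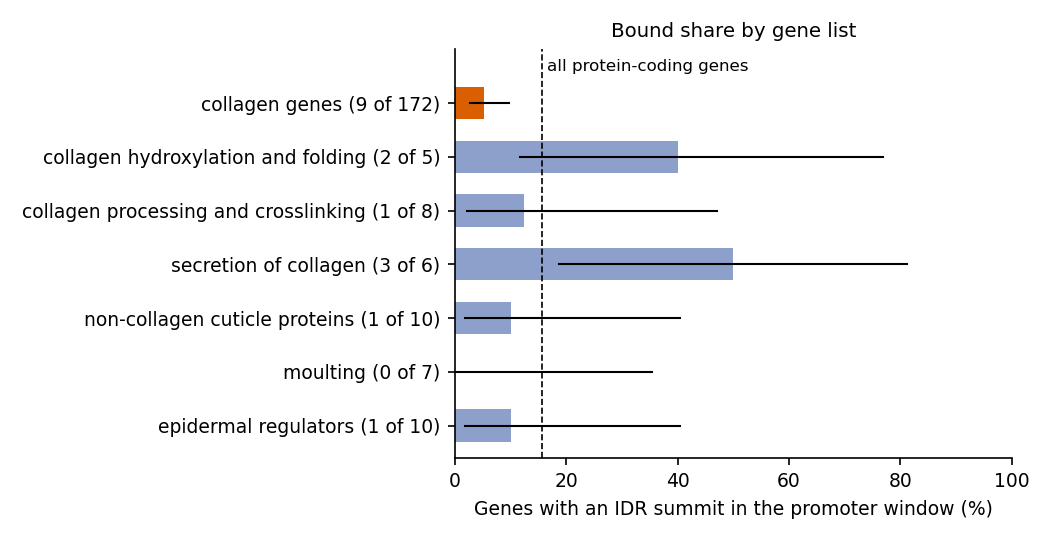
Share of genes with an IDR summit in the promoter window (x axis, percent) for the 172 collagen genes and for 6 gene lists. These lists hold genes linked to collagen, the cuticle, moulting or the epidermis. Bars are shares, lines are 95% Wilson intervals, which cover counting error only, and the dashed line is the 15.6% of all protein-coding genes. The collagen bar, at 5.23%, ends below the dashed line, and the lists of 5 to 10 genes have wide intervals that in 5 of 6 cases cross the line. That of secretion (3 of the 6 genes found) lies above it, though its bound gene tmem-131 had no region in the window in replicate 2. The secretion list leaves out the listed names sec-13 and emo-1, which were not found under those names in the annotation. Its share and interval therefore cover only the genes found.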

How the data were processed

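ChIP-seq peak lists of tagged NFYA-1 in whole L3 animals, 2 biological replicates, were used as deposited, on ce11; lists on another build were not used. The authors deposited a signal value for each region, on a scale that the labels do not define, and its −log10 q value. The deposited −log10 q values reached a ceiling of 4.17 in the IDR and pooled lists and separated no IDR peaks. No label or header read here names the aligner, the peak caller, the control handling or the depth, which are therefore not given in the sources used here. A summit is the region start plus the deposited offset.

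Gene starts came from Ensembl release 115 and sequence from the NCBI RefSeq WBcel235 genome. Each gene was scored by its strongest summit from 500 bp upstream to 200 bp downstream. Bound genes and the 10 strongest others were named, with the bound genes of pathway lists. Looked up by name, 3 listed names were not found in the annotation: nas-35 (processing), and sec-13 and emo-1 (secretion). Each of these genes may be annotated, or already listed, under another name. Members and lists were chosen with earlier results of these data known. Shares carry 95% Wilson intervals for counting error only. No p-value was computed, since there is 1 group. Intervals used scipy 1.17.1, tables pandas 2.3.3 with numpy 2.4.6, and plots matplotlib 3.10.9, under Python 3.11.15; window counting was tested on simulated data. Other windows, starts, overlap rules, signal thresholds, motif windows and single replicates were tried.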

Additional observations from a re-analysis of the deposited data

How the results depend on the processing

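Of 29 values recomputed under other settings, 10 moved and 19 were counted as keeping their size, which is a loose label. Among those counted as kept, the 9 bound collagens became 6 from 200 bp upstream to 100 bp downstream (8.61% of all genes). That window left out col-38, col-2 and col-71, the 3 strongest. The count was also 6 with the nearest protein-coding start only (12.7% of all genes), and 12 from 1000 bp upstream (19.4%). The 9 bound collagens became 3 with IDR peaks above the median signal, and ranged from 9 to 14 over the single replicates. Without IDR regions of the most common width 3 were left, and without summits in coding exons 5, both settings chosen after seeing the data. From 200 bp upstream to 100 bp downstream, the 45 collagens with a relaxed summit became 26, the 9 bound pathway genes 3, and the 4 summits shared with another protein-coding window 0. Over single replicates the relaxed count ranged from 43 to 47 and the pathway count from 7 to 8; the latter was 5 with peaks above the median signal. CCAAT at 2 of 9 summits became 0 for RRCCAATSR and 1 in the higher-coordinate flank. The narrower window and the smaller peak sets leave fewer summits by construction; the cause of the other moves was not tested. No paired analysis was possible because there was 1 group. Depth is unknown, so absence of a summit is not absence of binding.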
